A study of Homo sapiens with 6 samples.

Results

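The genes described here are 41 human genes of the lysosome, of 19775 genes that single-gene probe sets name on the array. They were taken by name from a list that was drawn up with results of these arrays known. They were matched to every probe set that the platform annotation assigns to 1 of them alone. All 41 had at least 1 such probe set and 106 probe sets were found in total. By role they comprise 26 hydrolases of the lysosomal lumen, 3 luminal helpers that carry or present lipids (NPC2, PSAP and GM2A), 8 membrane proteins, 3 proteins of the proton pump and its accessory subunit, and the transcription factor TFEB.

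The cells were SK-Hep1, an established human line derived from a liver adenocarcinoma. Of 6 arrays, 3 came from cells transfected with 20 nM anti-miR-21, an oligonucleotide against the microRNA miR-21, and 3 from mock cells that received PBS in place of the oligonucleotide. Both groups were plated 24 hours before treatment with Lipofectamine RNAiMAX and collected 16 hours after it, and no genotype or strain differs between them. The mock group contained no control oligonucleotide, so an effect of miR-21 blockade and an effect of any transfected oligonucleotide cannot be told apart. The samples are labelled as total RNA, but the extraction protocol refers to immunoprecipitation of Argonaute, so which RNA fraction was hybridised is not settled. Because RNA of whole cultures was measured, fewer cells of a type and less RNA per cell cannot be told apart.

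Lysosomes are acidic organelles in which hydrolases break down glycolipids, glycosaminoglycans, glycoproteins and proteins. A proton pump in their membrane keeps the lumen acidic, heavily glycosylated membrane proteins line it, and transporters export the products to the cytosol. Loss of single hydrolases or transporters causes lysosomal storage disorders. Many lysosomal genes are bound by TFEB and its relatives at promoter elements built around the letters CACGTG.

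The target of the oligonucleotide is shown for orientation, as RefSeq gives it on GRCh38.p14 at chr17:59841273-59841294 on the plus strand, with the seed (bases 2 to 8) in capitals.
hsa-miR-21-5p: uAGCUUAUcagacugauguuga
The seed is the stretch through which a microRNA pairs with its messenger RNAs. Mature miR-21 was not measured on these arrays, and the effect of the oligonucleotide on it is not known from these data.

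On the first principal component, with 50.4% of the variance, anti-miR-21 replicate 1 stood apart from its group at 3.51. The other anti-miR-21 arrays had values of 20.11 and 19.63, and the mock arrays had -7.25, -16.04 and -19.95. Mock replicate 1, at -7.25, was likewise the mock array nearest the other group. Of 9 hepatocyte markers 3 passed the filter on low values, SERPINA1 brightly and AFP and TF just above it, whereas ALB, APOA1, APOB, FGB and TTR did not and HNF4A had no single-gene probe set. Of the other marker lists, 5 of 6 mesenchymal, 1 of 7 endothelial (TEK) and 1 of 8 macrophage markers (CD14) passed it. No marker in these lists was called between the groups and none had an unadjusted p under 0.05 with limma.

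Values are log2 expression as the authors deposited them. A probe set was tested if its mean over the 6 arrays was at least 4, and a gene was represented by its tested probe set with the highest mean, called here its brightest. This left 40 of the 41 genes and 77 of the 106 probe sets. The gene not tested was ARSA, arylsulfatase A, the sulfatase that acts on sulfatide, whose 2 probe sets averaged 2.31 and 1.99 in anti-miR-21 cells and 2.29 and 2.04 in mock cells. Differences are anti-miR-21 minus mock, tested with limma over all 22408 tested probe sets with Benjamini-Hochberg adjustment, and a gene was called at an adjusted p under 0.05.

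Of the 40 tested genes, 4 fell with anti-miR-21, namely the hydrolases GALC, NEU1 and ARSK and the membrane protein LMBRD1. None rose. At an unadjusted limma p under 0.05, 8 were lower (20%) and 1, NPC1, higher, against 11.3% of all genes lower, 6.84% higher and 18.1% in either direction. Among all 10848 genes tested, 1.22% were called lower, 0.913% higher and 2.13% in either direction, against 10.0% of the lysosomal genes called lower. The list was drawn up with results of these arrays known, so this share is a description and not a test. The remaining 36 genes had log2 differences between -0.22 and 0.23. For 35 of them the 95% interval of the difference lay within a 1.5-fold change either way, the exception being CTSZ.

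GALC encodes galactosylceramidase, which removes galactose from the myelin lipid galactosylceramide and is deficient in Krabbe disease. Its brightest probe set had log2 levels of 9.00, 8.91 and 8.79 in anti-miR-21 cells, against 9.81, 9.79 and 9.77 in mock cells. The groups were widely separated, with each anti-miR-21 array below each mock array. The log2 difference was -0.89 ± 0.064 (SE), a 1.85-fold fall (limma adjusted p = 0.00301). A dimmer probe set of GALC had 5.08, 4.77 and 4.45 in anti-miR-21 cells, against 4.95, 4.95 and 5.41 in mock cells, so the groups overlapped there (difference -0.34 ± 0.188 SE, limma adjusted p = 0.403). With its tested probe sets averaged, GALC was still called, at a smaller difference of -0.61 (limma adjusted p = 0.0356).

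NEU1 encodes the lysosomal sialidase, which removes terminal sialic acid from glycoproteins and is deficient in sialidosis. Its single probe set had log2 levels of 10.26, 10.21 and 10.23 in anti-miR-21 cells, against 10.77, 10.76 and 10.84 in mock cells. Arrays within each group lay close together and the groups did not overlap. The difference was -0.56 ± 0.049 (SE), a 1.47-fold fall (limma adjusted p = 0.00563). CTSA, the protective protein that holds NEU1 in an active complex, had log2 levels of 12.20, 12.18 and 12.20 in anti-miR-21 cells, against 12.19, 12.19 and 12.27 in mock cells. Its groups overlapped, and the 95% interval of its difference was -0.14 to 0.09 on the log2 scale.

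ARSK encodes arylsulfatase K, which removes the 2-sulfate of glucuronate during breakdown of glycosaminoglycans. Its brightest probe set had log2 levels of 7.51, 7.36 and 7.49 in anti-miR-21 cells, against 8.0, 7.94 and 7.84 in mock cells. The groups did not overlap, and the difference of -0.47 ± 0.067 (SE) was a 1.39-fold fall (limma adjusted p = 0.0228). The other ARSK probe sets lay on the same side. One had 5.42, 5.15 and 5.54 in anti-miR-21 cells, against 6.15, 6.07 and 6.42 in mock cells, and was also called (difference -0.85, 1.80-fold, limma adjusted p = 0.028). The third, of a type that can cross-hybridise, had 7.44, 6.85 and 7.47 in anti-miR-21 cells, against 8.12, 7.84 and 7.64 in mock cells, separate but not called (difference -0.61, limma adjusted p = 0.172). The gene's call was lost when anti-miR-21 replicate 2 was left out (limma adjusted p = 0.0887), and likewise for anti-miR-21 replicate 3 (0.0827), mock replicate 1 (0.0516) and mock replicate 2 (0.105), with log2 differences between -0.52 and -0.43 whichever array was left out.

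LMBRD1 encodes a lysosomal membrane protein needed, together with the transporter ABCD4, to export cobalamin (vitamin B12) to the cytosol. Its tested probe set had log2 levels of 7.93, 7.97 and 8.02 in anti-miR-21 cells, against 8.58, 8.58 and 8.75 in mock cells. The groups did not overlap, and the difference of -0.66 ± 0.066 (SE) was a 1.58-fold fall (limma adjusted p = 0.00864). ABCD4, which is not 1 of the 41 genes, had a difference of -0.06, with a 95% interval of -0.21 to 0.08. GALC, NEU1 and LMBRD1 stayed called with any 1 array left out, with highest limma adjusted p values of 0.0239, 0.0405 and 0.0482.

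**Figure D1:**
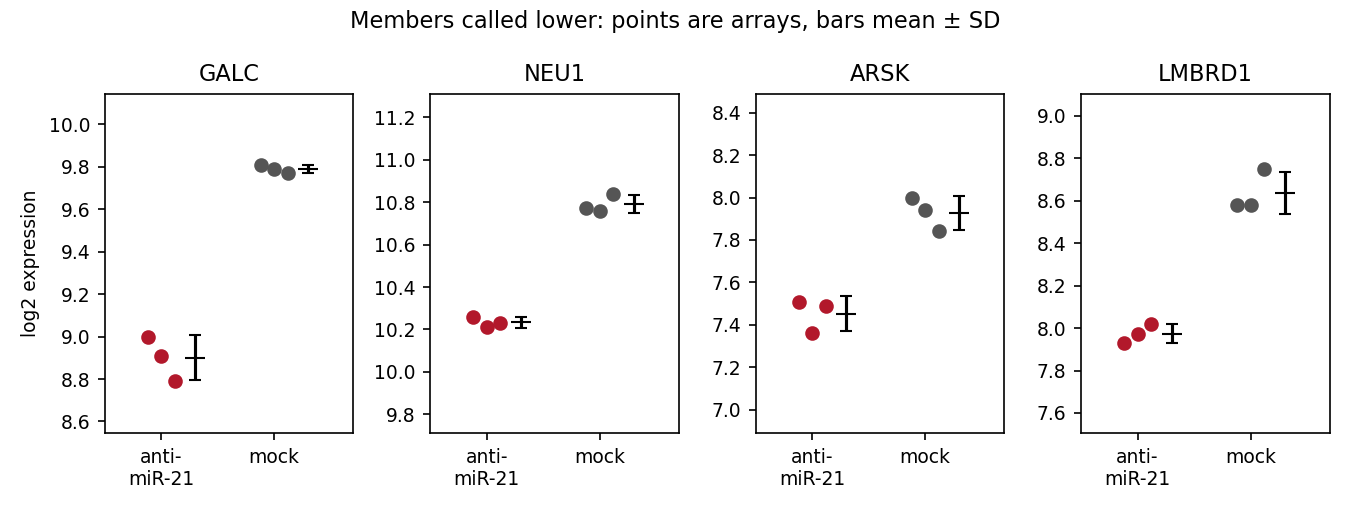
Log2 expression (y axis, a window of equal height in each panel, not starting at 0) of the brightest probe set of GALC, NEU1, ARSK and LMBRD1 in 3 anti-miR-21 arrays (red) and 3 mock arrays (grey), with mean ± SD beside the points. In each panel every anti-miR-21 array lies below every mock array, with differences of -0.89, -0.56, -0.47 and -0.66.

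Promoter sequence of these 4 genes is shown because each was called lower and because TFEB binds many lysosomal promoters. Whether TFEB has a part in their differences was not tested. The 200 bases before the annotated transcription start are from RefSeq on GRCh38.p14, written in the direction of transcription, with CACGTG or its extended form TCACGTGA in capitals where they occur. GALC lies at chr14:87993183-87993382 on the minus strand, NEU1 at chr6:31862822-31863021 on the minus strand, ARSK at chr5:95554901-95555100 on the plus strand and LMBRD1 at chr6:69796610-69796809 on the minus strand.
GALC: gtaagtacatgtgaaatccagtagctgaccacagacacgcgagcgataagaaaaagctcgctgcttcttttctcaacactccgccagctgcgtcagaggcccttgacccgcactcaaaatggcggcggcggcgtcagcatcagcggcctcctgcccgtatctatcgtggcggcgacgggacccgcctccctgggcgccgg
NEU1: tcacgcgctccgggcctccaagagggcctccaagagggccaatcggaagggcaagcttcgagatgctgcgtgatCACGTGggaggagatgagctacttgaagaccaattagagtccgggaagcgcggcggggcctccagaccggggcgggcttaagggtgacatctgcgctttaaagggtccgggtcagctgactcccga
ARSK: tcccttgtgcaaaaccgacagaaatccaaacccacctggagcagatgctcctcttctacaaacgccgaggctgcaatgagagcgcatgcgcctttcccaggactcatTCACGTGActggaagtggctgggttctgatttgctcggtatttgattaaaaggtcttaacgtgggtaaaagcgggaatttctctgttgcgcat
LMBRD1: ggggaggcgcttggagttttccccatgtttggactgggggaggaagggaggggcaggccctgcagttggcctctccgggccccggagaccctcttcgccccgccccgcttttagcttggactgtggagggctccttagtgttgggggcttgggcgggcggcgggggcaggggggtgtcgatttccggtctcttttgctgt
NEU1 held CACGTG 126 bases before its start. ARSK held the extended form, with its CACGTG 92 bases before the start. GALC and LMBRD1 held neither in the windows searched, which says nothing of binding elsewhere.

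The same letters were common among genes of the list that were not called. Windows of 300 bases, from 250 before to 50 after the start, were found for 31 of the 41 genes. CACGTG, which reads the same on both strands, occurred in 10 of these 31 (32.3%), against 7.43% of 27305 promoters. The 27305 have 1 window per gene, whether or not the gene was tested here. They were not matched to the 31 for expression or base composition. TCACGTGA, which contains CACGTG, occurred in 7 of 31 (22.6%), against 1.04% of all promoters. The genes with CACGTG were ARSK, ATP6V0D1, CD63, CLN3, CTSA, CTSD, GAA, LAMP1, MCOLN1 and NEU1. Of these, ARSK and NEU1 were called lower and the other 8 had differences between -0.13 and 0.03. Stretches of GAA (chr17:80101494-80101563, plus strand) and MCOLN1 (chr19:7522572-7522623, plus strand) are given because each held 2 copies of TCACGTGA before the start, shown in capitals.
GAA: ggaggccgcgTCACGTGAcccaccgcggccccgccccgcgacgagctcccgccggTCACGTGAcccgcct
MCOLN1: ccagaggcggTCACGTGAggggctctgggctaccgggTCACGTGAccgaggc
GAA, the acid alpha-glucosidase of glycogen breakdown, had a difference of -0.01 with a 95% interval of -0.14 to 0.12.

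TFEB itself was measured by 2 tested probe sets. The brighter had log2 levels of 7.13, 7.25 and 7.19 in anti-miR-21 cells, against 7.10, 7.13 and 6.90 in mock cells. The groups separated before rounding, with the lowest anti-miR-21 array at the level of the highest mock array, and the difference of 0.15 ± 0.075 (SE) was not called (limma adjusted p = 0.369). The dimmer probe set had a difference of -0.03 and overlapping groups.

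Among hydrolases, 25 of 26 were tested, of which 3 fell, none rose and 22 were not called. The 3 that fell were 12% of those tested, against 1.22% of all genes called lower. Because the list was drawn up with results known, the shares in this paragraph are a description only. At an unadjusted limma p under 0.05, 6 hydrolases were lower (24%) and none higher, against 11.3% of all genes lower and 6.84% higher. Their log2 differences ran from -0.89 to 0.12 with a median of -0.024, against a median of -0.018 over all genes tested. Negative values made up 64.0% of the hydrolases, against 56.7% of all genes. The 3 hydrolases that fell act on different substrates, as described for each of them.

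The hydrolases closest to the threshold were SGSH, LIPA and GLA. SGSH, the sulfamidase of heparan sulfate breakdown, had log2 levels of 8.18, 8.27 and 8.20 in anti-miR-21 cells, against 8.47, 8.41 and 8.43 in mock cells, without overlap (difference -0.22 ± 0.05 SE, limma adjusted p = 0.0866). LIPA, the acid lipase of cholesteryl ester breakdown, had 13.10, 13.00 and 12.99 in anti-miR-21 cells, against 13.21, 13.22 and 13.30 in mock cells, also without overlap (difference -0.21 ± 0.055 SE, limma adjusted p = 0.116). Both kept a negative difference in every alternative tried and were called in none. A dimmer tested probe set of SGSH had overlapping groups (difference -0.10, limma adjusted p = 0.662). GLA, alpha-galactosidase A, which is deficient in Fabry disease, had 10.74, 10.59 and 10.54 in anti-miR-21 cells, against 10.72, 10.89 and 10.91 in mock cells. Its groups overlapped through anti-miR-21 replicate 1, and it was not called (difference -0.22 ± 0.079 SE, limma adjusted p = 0.224).

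Sorted by textbook substrate, a grouping made after the values were seen, the 6 proteases and peptidases had no called gene. CTSA, CTSB, CTSD, CTSL, CTSZ and TPP1 had differences of -0.02 to 0.12, with a median of 0.017. CTSB, cathepsin B, had log2 levels of 13.82, 13.87 and 13.88 in anti-miR-21 cells, against 13.87, 13.83 and 13.85 in mock cells, and the 95% interval of its difference was -0.10 to 0.12. CTSZ had 8.30, 9.48 and 8.48 in anti-miR-21 cells, against 8.80, 8.51 and 8.60 in mock cells. Its anti-miR-21 replicate 2 stood far above the other 5 arrays, and its 95% interval of -0.58 to 0.82 was the widest of the 40 genes.

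The 7 hydrolases of glycosaminoglycan breakdown had a median difference of -0.15, against -0.018 over all genes. Of the 7, 6 were negative (85.7%), against 56.7% of all genes. As this group was also made after the values were seen, these shares are a description only. Besides ARSK and SGSH these were GUSB at -0.15 (beta-glucuronidase), ARSB at -0.16 (arylsulfatase B), IDUA at -0.12 (alpha-iduronidase), NAGLU at -0.02 (alpha-N-acetylglucosaminidase) and IDS at 0.07 (iduronate sulfatase). Of these, GUSB had groups that did not overlap, with a 95% interval of -0.32 to 0.02. With ARSK and SGSH, 42.9% of the 7 were lower without overlap, against 15.1% of all genes. The 5 tested sphingolipid hydrolases ran from -0.89 for GALC to 0.01 for HEXA, the hexosaminidase alpha subunit, with SMPD1 (acid sphingomyelinase) at -0.06 and ASAH1 (acid ceramidase) at -0.02. Among glycoprotein glycosidases other than NEU1, FUCA1 (alpha-fucosidase) was at -0.12 without overlap between groups, MAN2B1 (alpha-mannosidase) at 0.01 and MANBA (beta-mannosidase) at 0.03. PPT1, palmitoyl-protein thioesterase, was at -0.07.

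The 3 luminal helpers had differences of -0.18 to -0.03 and none was called. GM2A, the activator that presents ganglioside GM2 to hexosaminidase A, had log2 levels of 12.57, 12.42 and 12.54 in anti-miR-21 cells, against 12.57, 12.73 and 12.76 in mock cells. The groups touched at this rounding, and the difference was -0.18 ± 0.071 (SE, limma adjusted p = 0.261). NPC2, which carries cholesterol in the lumen, had 13.13, 13.02 and 13.04 in anti-miR-21 cells, against 12.99, 13.22 and 13.22 in mock cells, with overlap and a difference of -0.08. PSAP, the precursor of the saposins, of which saposin A assists GALC, was at -0.03 with a 95% interval of -0.16 to 0.09.

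The membrane proteins and the proton pump were compared with the hydrolases. All 11 genes of these groups were tested, of which 1 fell (LMBRD1), none rose and 10 were not called. At an unadjusted limma p under 0.05, LMBRD1 was lower (9.09%) and NPC1 higher, against 11.3% of all genes lower and 6.84% higher. The share called lower was 12% of tested hydrolases and 9.09% of tested membrane and pump genes, against 1.22% of all genes. The 9.09% is LMBRD1 alone, and these shares too are a description only, as the list was drawn up with results known. Negative values made up 64.0% of hydrolases and 81.8% of membrane and pump genes, against 56.7% of all genes. The median difference was -0.024 for hydrolases and -0.078 for membrane and pump genes, and -0.063 for the 8 membrane proteins alone. The order of these medians turned without mock replicate 3, where they were -0.033 for hydrolases and -0.007 for membrane and pump genes. In the other alternatives it held. No difference between the groups is claimed from these medians, and none was tested.

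NPC1, which exports cholesterol from the lysosome, was the membrane gene with the highest difference. It had log2 levels of 10.73, 10.88 and 10.86 in anti-miR-21 cells, against 10.63, 10.50 and 10.65 in mock cells. The groups did not overlap, but the gene was not called (difference 0.23 ± 0.067 SE, limma adjusted p = 0.142, and 0.102 to 0.386 over the alternatives). NPC2, which hands cholesterol to NPC1, had the opposite sign with overlapping groups, as given with the luminal helpers.

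MCOLN1, the calcium channel mucolipin 1, had log2 levels of 8.84, 8.98 and 8.99 in anti-miR-21 cells, against 9.04, 9.09 and 9.09 in mock cells. The groups were separate and close, and the gene was not called (difference -0.13 ± 0.059 SE, limma adjusted p = 0.311). CD63, a tetraspanin of late endosomes and lysosomes, had 14.80, 14.80 and 14.77 in anti-miR-21 cells, against 14.74, 14.85 and 14.81 in mock cells. Its groups overlapped, with a 95% interval of -0.13 to 0.11. LAMP1, the major membrane glycoprotein, was at -0.02 with an interval of -0.13 to 0.09, and its 4 probe sets lay between -0.02 and 0.01. CLN3, a membrane protein deficient in juvenile Batten disease, was at -0.13 without overlap, while its dimmer tested probe set was at -0.09 with overlap. SCARB2, the receptor that carries beta-glucocerebrosidase to lysosomes, was at 0.05.

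The proton pump genes had differences of -0.11 for ATP6V1H and -0.04 for ATP6V0D1, subunits of the V1 and V0 sectors, and -0.08 for the accessory subunit ATP6AP1. ATP6V0D1 had log2 levels of 13.70, 13.74 and 13.74 in anti-miR-21 cells, against 13.69, 13.76 and 13.85 in mock cells, and the groups of all 3 genes overlapped.

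**Figure D2:**
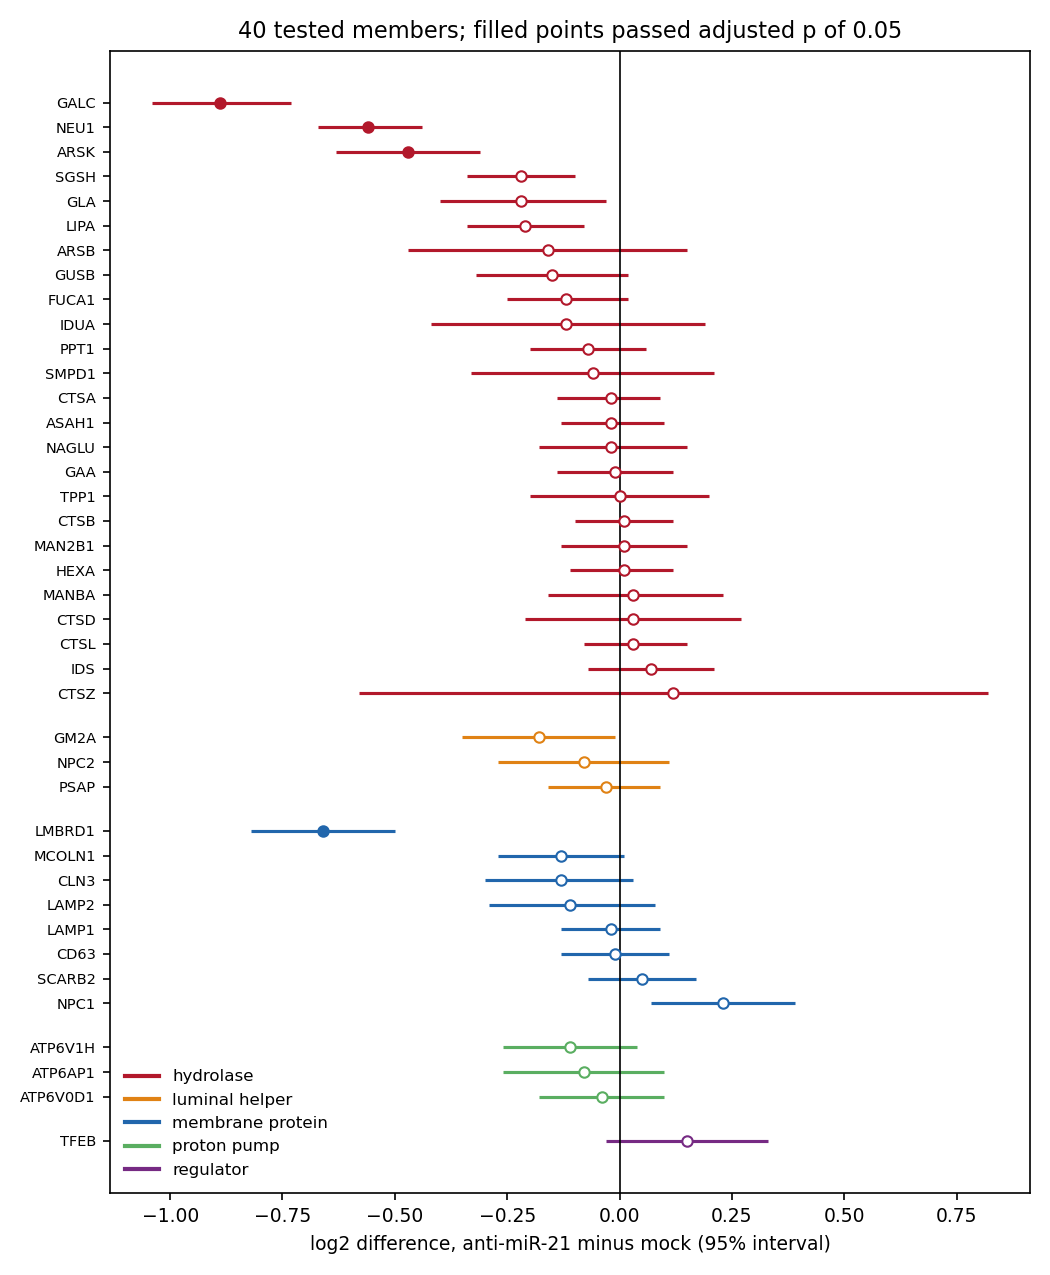
Log2 difference, anti-miR-21 minus mock (x axis), with its 95% interval for the brightest probe set of each of the 40 tested genes, ordered within roles. Filled points, GALC, NEU1, ARSK and LMBRD1, passed an adjusted p of 0.05, and the other 36 lie between -0.22 and 0.23.

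**Figure D3:**
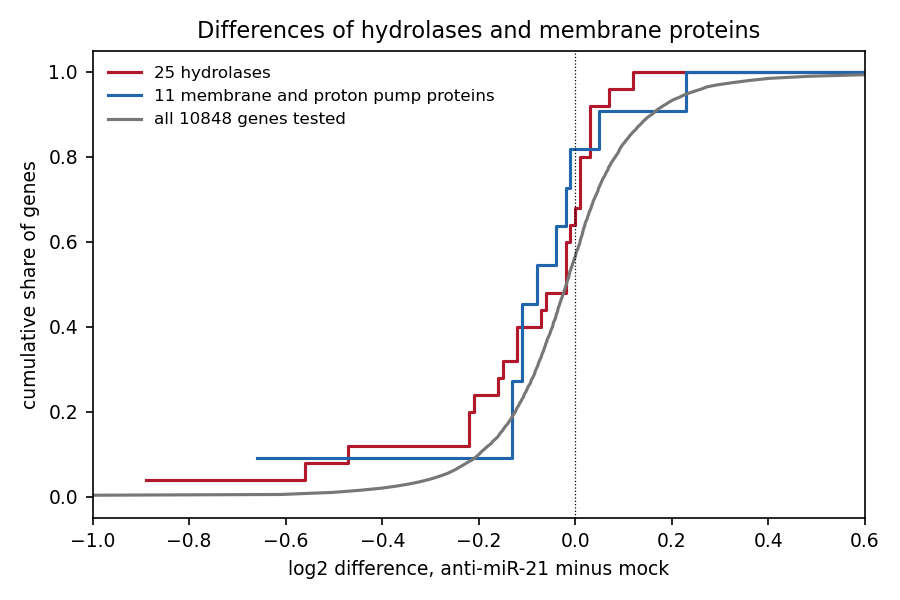
Cumulative share of genes (y axis) by log2 difference, anti-miR-21 minus mock (x axis), for 25 hydrolases, 11 membrane and proton pump genes and all 10848 genes tested (cut at the ends of the axis). The medians are -0.024, -0.078 and -0.018, and the called genes form the left tail of the 2 lysosomal curves.

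Across the 40 genes, the anti-miR-21 and mock arrays did not overlap in 13 (32.5%), 11 lower (27.5%) and 2 higher (5%), against 25.5% of all genes tested, 15.1% lower and 10.4% higher. Among the 36 that were not called the count was 9, or 25%. As a deviation from each gene's mean over the 6 arrays, the 4 called genes had medians of -0.297, -0.333 and -0.283 in anti-miR-21 replicates 1, 2 and 3, against 0.290, 0.260 and 0.374 in the mock arrays. The 36 others had medians of -0.026, -0.021 and -0.009 in cells given anti-miR-21, against 0.013, -0.006 and 0.033 in the mock arrays. The called genes were selected for arrays that lie close within a group, so their medians are a description only. For GALC, NEU1 and ARSK, anti-miR-21 replicate 1 was the anti-miR-21 array nearest the mock arrays, with deviations of -0.345, -0.249 and -0.182. For LMBRD1 it was the farthest, at -0.371.

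Of the 77 tested probe sets, 5 were called lower and none higher, against 1.07% lower, 1.10% higher and 2.17% either way among all probe sets tested. Negative differences made up 58.4% of them, against 50.9% of all probe sets. Several of the genes had more than 1 tested probe set, and 16 could be examined for probe sets moving apart. Of 5285 such genes on the array, 1.42% passed (limma on the difference of each probe set from the others of its gene, Simes combination, adjusted p under 0.05), and none of the 16 did. The lowest values were for GALC (unadjusted p = 0.0122, adjusted p = 0.218) and LAMP2 (unadjusted p = 0.0595, adjusted p = 0.435), so GALC alone had an unadjusted p under 0.05. LAMP2, a membrane glycoprotein with known splice forms, had 4 probe sets between -0.12 and 0.19. One had 12.06, 12.03 and 11.96 in anti-miR-21 cells, against 11.80, 11.79 and 11.87 in mock cells, and another 9.93, 9.90 and 9.95 in anti-miR-21 cells, against 10.03, 10.10 and 10.02 in mock cells. Each was separate between groups, in opposite directions, and neither was called (limma adjusted p = 0.126 and 0.258). The splice forms they measure are not given in the annotation used.

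IDS had 7 tested probe sets between -0.14 and 0.35, several of a type that can cross-hybridise, and a pseudogene of IDS is known, so its value is uncertain. GM2A had 6, between -0.18 and 0.05. Of these, one had 10.66, 11.23 and 11.02 in anti-miR-21 cells, against 11.06, 10.80 and 10.90 in mock cells, a spread within the anti-miR-21 group that its brightest probe set does not show. Another had 10.39, 10.89 and 10.71 in anti-miR-21 cells, against 10.78, 10.55 and 10.62 in mock cells. A further one had 10.32, 10.66 and 10.61 in anti-miR-21 cells, against 10.80, 10.40 and 10.57 in mock cells. The groups overlapped in each of these. The remaining tested probe sets of GM2A had differences of -0.14 and -0.18, near that of the brightest. CTSB had 5 between 0.01 and 0.23, TPP1 (tripeptidyl peptidase 1) 3 between 0.00 and 0.19, and ASAH1 4 between -0.17 and 0.06, none of them called.

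**Figure D4:**
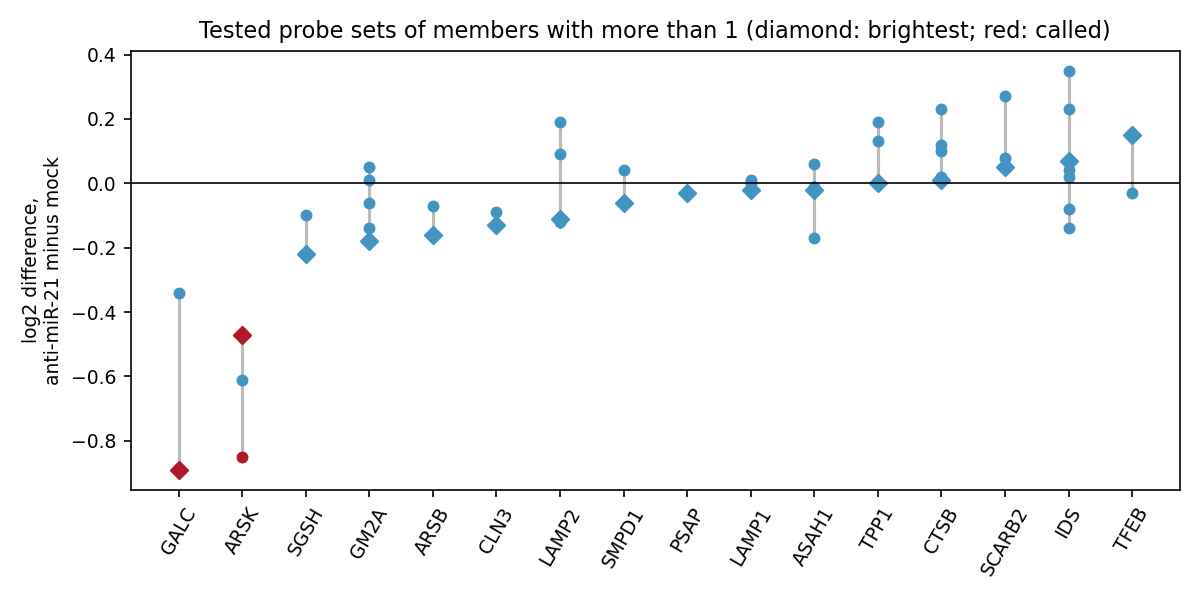
Log2 difference, anti-miR-21 minus mock (y axis), of each tested probe set of the 16 genes with more than 1. Diamonds mark the brightest probe set and red those called, which are 1 of GALC and 2 of ARSK; probe sets of IDS and LAMP2 fall on both sides of 0.

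Other lysosomal genes were described from 4 lists of 121 genes in all, of which 94 were tested. Of these 1 fell, SLC38A9, none rose and 93 were not called, and 11 were lower and 1 higher at an unadjusted limma p under 0.05. The share called lower was 1.06%, against 1.22% of all genes tested, and the share lower at an unadjusted p under 0.05 was 11.7%, against 11.3%, so both counts were near those of all genes. Their median difference was -0.062, against -0.018 over all genes. Negative differences made up 69.1% of them and 70% of the 40 tested genes, against 56.7% of all genes. SLC38A9, the arginine-sensing transporter of the lysosomal membrane, had log2 levels of 8.78, 8.77 and 8.84 in anti-miR-21 cells, against 9.17, 9.19 and 9.16 in mock cells. The groups did not overlap, and the difference of -0.38 ± 0.048 (SE) was a 1.30-fold fall (limma adjusted p = 0.0173). It was not called when anti-miR-21 replicate 2 was left out (limma adjusted p = 0.0867), nor when anti-miR-21 replicate 3 (0.0659), mock replicate 2 (0.0915) or mock replicate 3 (0.0543) was.

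Among 30 tested membrane genes of these lists, the next smallest p values were those of SIDT2, a lysosomal nucleic acid transporter, at -0.40, and SLC15A4, a histidine and peptide transporter, at -0.22 (limma adjusted p = 0.054 and 0.0698). In the list of other hydrolases, with 21 tested genes, they were HGSNAT at -0.26, a membrane-bound acetyltransferase of heparan sulfate breakdown that is listed there although it is not a hydrolase, HYAL2, a hyaluronidase, at -0.27, and CTSO, cathepsin O, at -0.36 (limma adjusted p = 0.0584, 0.0833 and 0.235). Among 15 pump genes ATP6V0B, ATP6V1B2 and ATP6V1G1 had -0.18, -0.15 and -0.10 (limma adjusted p = 0.252, 0.297 and 0.304). Among 28 genes of delivery and control, VPS33A and VPS18, subunits of complexes that tether vesicles to lysosomes, had -0.24 and -0.25, and FNIP2, a partner of folliculin, 0.33 (limma adjusted p = 0.0923, 0.274 and 0.097). With its tested probe sets averaged, VPS33A was at -0.07 (limma adjusted p = 0.476).

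**Figure D5:**
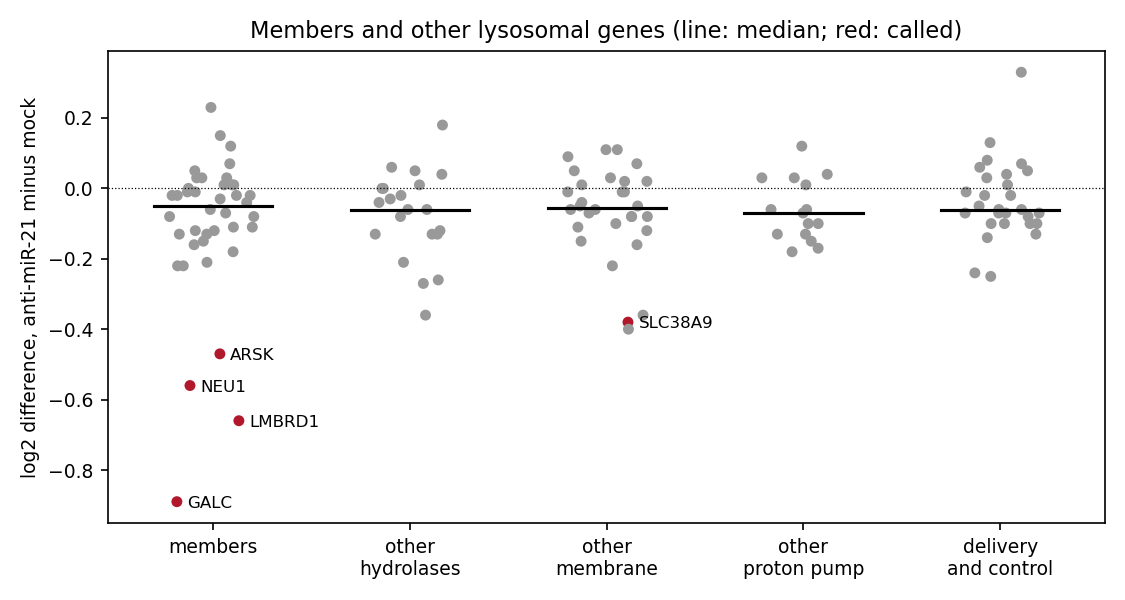
Log2 difference, anti-miR-21 minus mock (y axis), of the 40 tested genes and of 94 other lysosomal genes in 4 lists, with medians as lines. Called genes are red and named, 4 in the first column and SLC38A9 among other membrane genes.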

How the data were processed

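RNA from 3 anti-miR-21 and 3 mock samples was hybridised to 1 single-colour array each. The authors' table holds deposited log2 values of 54675 probe sets. GCRMA is named in the submitters' processing notes, without settings. That method corrects background, normalizes arrays and summarises probe sets, and dim probe sets are drawn towards a low common level. No scanner file was used. The 62 control probe sets were left out.

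Probe sets were named by the platform annotation where it lists 1 gene, with symbols updated through Entrez identifiers. Probe sets with a mean of at least 4 over the 6 arrays (22408, 41.0%) entered limma (version 3.58.1, R version 4.3.3) with lmFit and eBayes on the 2 groups, two-sided, with Benjamini-Hochberg adjustment. Intervals are at 95% from the moderated fit. The fits were tested on simulated data. The labels call replicates biological without naming separate cultures, so the spread behind each p-value may be technical, and 3 arrays a group limit precision.

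The members and lists were chosen with earlier results of these data known. Per-array values are given for members with a called probe set, the 10 members with the smallest p and the brightest member of each role, and other lysosomal genes are named if called or among the 3 smallest p of their list. A few others are named as chosen after their values were seen (CTSA, CTSZ, LAMP2, dimmer GM2A probe sets and ABCD4 among them). Alternatives varied the filter, scaling, variance model, probe set rule, replicate block and arrays. The labels state no pairing by replicate number, and whether the numbers pair the arrays is not settled.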

Additional observations from a re-analysis of the deposited data

How the results depend on the processing

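Counts of called lysosomal genes, probe sets and other lysosomal genes, and the differences of named genes, were recomputed with a filter at 6, no filter, median centring, quantile normalization, limma with trend and robust, the mean of a gene's probe sets, a replicate block, and each array left out. The same 4 genes were called under the first 6 of these settings. Same-numbered arrays did not deviate together (correlations of deviations of -0.361, -0.266 and -0.002). On the first principal component, however, replicate 1 of each group lay nearest the other group (3.51 and -7.25). The labels state no pairing, and these values do not settle whether the numbers pair the samples. With the replicate block, 2 lysosomal genes (GALC and LMBRD1) and 3 of their probe sets were called, no other lysosomal gene (10 at an unadjusted limma p under 0.05), 32 of all genes and 91 of all probe sets, in a fit with fewer residual degrees of freedom. NEU1, ARSK and SLC38A9 had the same differences there, with limma adjusted p values of 0.0554, 0.101 and 0.115. With arrays left out, the counts were 3 to 4 lysosomal genes, 3 to 4 lysosomal probe sets, 0 to 3 other lysosomal genes (10 to 15 at an unadjusted p under 0.05), 38 to 226 of all genes and 96 to 572 of all probe sets. The low ends for all genes, 38, 41, 44 and 80, came without mock replicate 2, anti-miR-21 replicate 3, anti-miR-21 replicate 2 and mock replicate 3. The median difference then ran from -0.055 to -0.027 for hydrolases and from -0.093 to -0.007 for membrane and pump genes. With probe sets averaged, 355 of all genes and 5 other lysosomal genes were called, and the membrane and pump median was -0.039. Other lysosomal genes called numbered 3 with the filter at 6 and 2 without a filter. HGSNAT, SIDT2, SLC15A4 and FNIP2 were each called in 2 alternatives, with lowest limma adjusted p values of 0.0389, 0.037, 0.0393 and 0.0363. Signs turned only for uncalled genes near 0, namely CD63 with quantile normalization (0.01) and with arrays left out CD63 (-0.04 to 0.02), CTSB (-0.01 to 0.02) and ATP6V0D1 (-0.08 to 0.00). Apart from the alternatives' own construction, the cause was not tested. Signal over background was not examined, and values near the filter (IDUA, the dim GALC probe set) are the least certain.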
